A study of Mus musculus with 6 samples.

Results

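Chil1, Chil3 and Chid1 encode the chitinase-like proteins that were followed here, 3 genes of the 19938 that had a probe set with exactly 1 gene symbol. They were chosen by symbol with their measured differences between knockdown and wild type known, in which Chil1 and Chil3 stood among the genes furthest below wild type in the knockdown. Their own differences are therefore given as a description and without a p-value. Each of the 3 genes had a single probe set.

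The arrays came from 3 MYB knockdown mice and 3 wild type mice, all males of the C57BL6 strain aged 4 weeks, with 1 Affymetrix whole-transcript array per mouse. From bone marrow, cells positive for Kit and CD11b and low for lineage markers were sorted by flow cytometry, a fraction that the labels call K11bL, and the series title calls the cells myeloproliferative. How the knockdown was made, in which cells it acts and which markers defined the lineage gate were not stated in the labels. The 2 gate genes were bright in both groups: Kit averaged 10.22 in knockdown and 10.50 in wild type cells on the log2 scale, and Itgam, which encodes CD11b, averaged 9.45 in knockdown and 9.84 in wild type cells (limma, adjusted p = 0.06 and 0.202); both were named because they define the gate, after their values were seen. Myb, the transcription factor lowered in these mice, had log2 values of 11.26, 11.08 and 11.14 in knockdown mice 1, 2 and 3, against 11.47, 11.46 and 11.46 in wild type mice 1, 2 and 3, a difference of -0.30 ± 0.064 (SE; limma, adjusted p = 0.0196). The call of Myb was lost without knockdown mouse 2 (adjusted p = 0.0777) and without wild type mouse 1, 2 or 3 (adjusted p = 0.0963, 0.09 and 0.0928), after median centring (adjusted p = 0.074) and by eBayes without a trend (adjusted p = 0.0662).

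Chitinases of the glycosyl hydrolase 18 family cut chitin, a polymer of N-acetylglucosamine found in fungi, arthropods and parasites but not made by mammals. Chitinase-like proteins keep the fold and bind sugars but have lost the cutting activity. Chil3, also called Ym1, is a secreted lectin of neutrophil precursors and of macrophages exposed to IL-4 or IL-13, and it can form crystals in inflamed tissue. Chil1, the mouse counterpart of human CHI3L1, is a secreted glycoprotein that in human neutrophils is held in specific granules. Chid1, the stabilin-1 interacting chitinase-like protein, is a more distant relative that is made in many cell types and passes through the lysosomal and secretory pathway.

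Chil3 was the member with the largest difference. Its probe set read 6.97, 5.03 and 4.51 on the log2 scale in knockdown mice 1, 2 and 3, against 10.99, 11.41 and 11.15 in wild type mice 1, 2 and 3. Every knockdown mouse lay below every wild type mouse, with a gap of 4.02 between the nearest mice of the groups. The means were 5.50 ± 1.3 in knockdown and 11.18 ± 0.215 in wild type (SD, n = 3 each), a difference of -5.68, or 51.2-fold lower in the knockdown. The knockdown mice spread over 2.46 log2 units and the wild type mice over 0.43. Without knockdown mouse 1, the highest of its group, the difference was -6.41. Both mice left are under the array floor described below, and with values under it raised to it the level was at least 56.1-fold lower.

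Chil1 gave 7.03, 6.33 and 6.23 in knockdown mice 1, 2 and 3, against 9.78, 10.31 and 10.14 in wild type mice 1, 2 and 3. The groups were again apart, by 2.75 between their nearest mice. The mean was 6.53 ± 0.435 in knockdown and 10.08 ± 0.27 in wild type (SD, n = 3 each), a difference of -3.55, or 11.7-fold lower in the knockdown. Knockdown mouse 1 was the highest of its group for Chil1 as it was for Chil3. Mouse 3 was the lowest for both genes, but for Chil3 mice 2 and 3 were under the array floor described below. For comparison, the median SD of all genes tested was 0.171 in knockdown and 0.079 in wild type mice, so both genes varied more between mice than a typical gene.

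Chid1 did not follow them. It read 7.50, 7.41 and 7.35 in knockdown mice 1, 2 and 3, against 7.45, 7.40 and 7.28 in wild type mice 1, 2 and 3, and the groups overlapped. Its means of 7.42 ± 0.0753 in knockdown and 7.38 ± 0.0844 in wild type (SD, n = 3 each) differed by 0.04, less than the SD within either group.

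**Figure D1:**
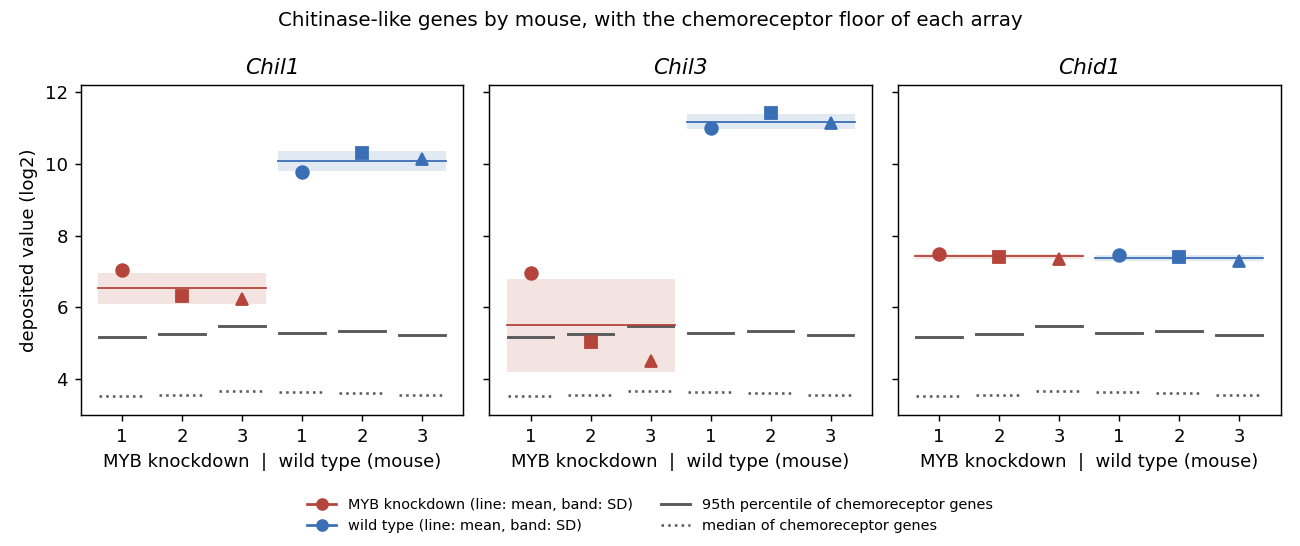
Deposited log2 values (y axis) of Chil1, Chil3 and Chid1 in the 3 MYB knockdown mice (red, left) and the 3 wild type mice (blue, right), with the group mean as a line and the SD as a band. Grey bars give the 95th percentile and dotted bars the median of the chemoreceptor genes on the same array; knockdown mice 2 and 3 lie under the grey bar for Chil3 only.

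The deposited values carry no detection call, so the floor of each array was read from the 1210 probe sets of olfactory and vomeronasal receptor genes, which serve chemosensory neurons and are not known as genes of marrow cells. The 95th percentile of these chemoreceptor genes was 5.18, 5.27 and 5.48 on the arrays of knockdown mice 1, 2 and 3, and 5.28, 5.35 and 5.23 on those of wild type mice 1, 2 and 3. Their median lay between 3.54 and 3.67 on all 6 arrays. The floor was therefore at a similar height in both groups.

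Against this floor Chil3 was measured in 1 of 3 knockdown mice. Knockdown mouse 1 was 1.79 above it, while mice 2 and 3 were 0.24 and 0.97 under it (differences of -0.24 and -0.97), inside the range of genes that marrow is not known to use. The wild type mice were 5.71, 6.07 and 5.92 above their floors. With every value under the floor raised to it, Chil3 differed by -5.28, so its level was at least 38.8-fold lower in the knockdown, and at least 27.5-fold lower with the floor at the 99th percentile. The floor at the chemoreceptor median or at the lower quartile of all probe sets changed no value of Chil3.

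Chil1 was above the floor in every mouse. It was 1.85, 1.06 and 0.75 above it in knockdown mice 1, 2 and 3, and 4.50, 4.96 and 4.91 above it in wild type mice 1, 2 and 3, so its difference of -3.55 was the same under all 4 floors tried. In knockdown mice 2 and 3 Chil1, at 6.33 and 6.23, was close to the 99th percentile of the chemoreceptor genes, 6.11 and 6.13. Chid1 was between 1.87 and 2.32 above the floor in knockdown and between 2.05 and 2.16 in wild type mice. Affymetrix signals are compressed near the floor and for very bright probe sets, and an array difference can understate the difference in RNA.

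In the fit over all 13956 genes tested, 2 of the 3 members, Chil1 and Chil3, were among the genes called lower, where 5.48% of all genes were called lower, 6.12% higher and 11.6% either way (765 and 854 genes; after median centring 593 and 1433). Both also belonged to the 14.4% of genes whose knockdown mice all lay below all wild type mice (34.3% had no overlap in either direction). Since this contrast chose the members, nothing is read from these counts. Fewer cells of a type and less RNA per cell cannot be told apart in such bulk samples. Knockdown mouse 3 stood apart from the rest, with correlations over all probe sets of 0.977 and 0.984 with the other knockdown arrays, against 0.994 between knockdown mice 1 and 2 and 0.993 to 0.995 among wild type arrays. Without knockdown mouse 3, Chil3 differed by -5.18, Chil1 by -3.40 and Chid1 by 0.08.

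Chil1 lies on chromosome 1, Chil3 on chromosome 3 and Chid1 on chromosome 7. Chil3 has a close relative beside it, Chil4 or Ym2, and the windows around their annotated starts are shown with that of Chil1 because Chil1 and Chil3 were the members that differed and Chil4 is nearly the same as Chil3 in this stretch while its probe set was dim. Each window runs from 250 bases before the start to 50 after it, 5′ to 3′ on the strand of the gene, from RefSeq on GRCm38.p6. Capitals mark matches on either strand to AACNG, a core of the MYB site. They also mark the C/EBP letters TTGCNNAA. The STAT letters TTCNNNGAA are marked as well. The last motif in capitals is the TATA box, TATAAA. The windows are chr1:134181906-134182205 on the plus strand for Chil1, chr3:106167515-106167814 on the minus strand for Chil3, and chr3:106219430-106219729 on the minus strand for Chil4.
Chil1: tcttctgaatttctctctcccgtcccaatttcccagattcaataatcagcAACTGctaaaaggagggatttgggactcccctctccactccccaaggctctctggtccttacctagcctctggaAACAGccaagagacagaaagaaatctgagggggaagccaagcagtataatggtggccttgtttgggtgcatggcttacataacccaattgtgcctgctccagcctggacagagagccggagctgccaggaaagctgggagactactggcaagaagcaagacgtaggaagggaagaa
Chil3: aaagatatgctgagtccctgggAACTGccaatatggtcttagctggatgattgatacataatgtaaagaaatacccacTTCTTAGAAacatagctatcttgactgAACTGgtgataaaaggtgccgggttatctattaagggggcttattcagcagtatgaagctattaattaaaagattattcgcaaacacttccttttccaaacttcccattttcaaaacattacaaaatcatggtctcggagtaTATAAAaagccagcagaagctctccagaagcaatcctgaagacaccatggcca
Chil4: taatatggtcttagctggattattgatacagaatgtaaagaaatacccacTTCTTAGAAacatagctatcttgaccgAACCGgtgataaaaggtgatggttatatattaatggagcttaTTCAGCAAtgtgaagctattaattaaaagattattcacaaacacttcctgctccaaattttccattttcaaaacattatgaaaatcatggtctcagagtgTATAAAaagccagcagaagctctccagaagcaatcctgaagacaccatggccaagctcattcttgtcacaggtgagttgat

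The Chil3 and Chil4 windows were identical at 251 of 271 aligned bases (92.6%), against 152 of 267 (56.9%) for Chil1 and Chil3, which lies within the 54.1% to 70.5% of the remaining pairs of family windows. The MYB core was found 2 times in the Chil1 window, 2 times in that of Chil3 and 1 time in that of Chil4, and it occurs in 80.3% of the 32851 windows of the genome, so most windows hold it. The STAT letters were found in the Chil3 window at base -172 and in the Chil4 window at base -200, counted from the annotated start, and in 8.3% of all windows. The TATA letters stood at base -3 in Chil3 and at base -31 in Chil4, and in 13.6% of all windows. In both windows the STAT letters and the TATA letters are followed by the same run of bases, and the annotated start sits differently to them. The C/EBP letters were found in the Chil4 window only, of these 3, and in 10.8% of all windows. The PU.1 letters GAGGAA (28.3% of windows) were found in none of these 3 windows. Nor were the RUNX letters TGTGGT (16.8% of windows). These are matches of letters in a short window and not measured binding.

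The rest of the family was read next, as a list that was also chosen with earlier results of these data known. Of the other 7 glycosyl hydrolase 18 genes 6 had a probe set of their own and 3 passed the filter that leaves out the dimmest 30% of genes, and these were Chil5, Chit1 and Ctbs. Chil5 rose, Chit1 fell and Ctbs fell, with a median difference of -0.56 where that of all genes tested was 0.02. A gene that passed the filter only through its brighter group had to differ, so the count of 3 of 3 is no measure of the family.

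Chil5, a chitinase-like gene of the same stretch of chromosome 3 as Chil3, went the opposite way to it. It read 7.18, 6.33 and 6.43 in knockdown mice 1, 2 and 3, against 5.01, 4.94 and 5.33 in wild type mice 1, 2 and 3. Every knockdown mouse lay above every wild type mouse. The means were 6.65 ± 0.464 in knockdown and 5.10 ± 0.209 in wild type (SD, n = 3 each), a rise by 1.55 ± 0.22 (SE; limma, adjusted p = 0.00302). Here it was the wild type that lay at the floor, since 3 of 3 knockdown but 1 of 3 wild type mice were above it, that 1 by 0.10. With the values under the floor raised to it, Chil5 was at least 2.51-fold higher in the knockdown. Its wild type mean was also under the limit of the filter, 5.11. Chil5 was highest in knockdown mouse 1, the mouse that also kept most Chil3.

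Chit1, the chitotriosidase, is one of the true chitinases of mammals and the neighbour of Chil1 on chromosome 1. It read 4.86, 4.91 and 5.24 in knockdown mice 1, 2 and 3, against 5.81, 5.91 and 5.97 in wild type mice 1, 2 and 3, and the groups did not overlap. Chit1 fell by 0.90 ± 0.12 (SE; limma, adjusted p = 0.00221). All 3 knockdown mice were under the floor and the wild type mice were 0.53 to 0.74 above it, so its level was at least 1.51-fold lower in the knockdown, with the knockdown values raised to their floors. Its knockdown mean was under the limit of the filter on dim genes, 5.11, so the gene was tested only through its wild type values.

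Ctbs, a lysosomal enzyme that removes N-acetylglucosamine from the reducing end of glycans, averaged 6.85 ± 0.294 in knockdown and 7.41 ± 0.0989 in wild type (SD, n = 3 each). It fell by 0.56 ± 0.15 (SE; limma, adjusted p = 0.0498). This call was lost without knockdown mouse 2 (adjusted p = 0.0907) and without wild type mouse 1, 2 or 3 (adjusted p = 0.149, 0.198 and 0.132). It was also lost after median centring, without the filter on dim genes and with robust eBayes (limma, adjusted p = 0.0664, 0.0603 and 0.0518). Over all alternatives its adjusted p ranged between 0.00632 and 0.198.

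Chil4, Chia1 and Chil6 were under the floor on all 6 arrays and were not among the genes tested. Chil4 nevertheless read 3.85, 3.74 and 4.07 in knockdown mice 1, 2 and 3, against 4.66, 4.82 and 4.62 in wild type mice 1, 2 and 3. The groups did not overlap, with a difference of -0.81, and limma without the filter gave an adjusted p of 0.00171. With values under the floor in both groups no fold is given, and whether Chil3 RNA binds the probes of Chil4 was not tested. Chia1, the acidic mammalian chitinase, averaged 5.04 in knockdown and 5.07 in wild type, and Chil6 averaged 3.29 and 3.32; both genes overlapped between the groups.

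**Figure D2:**
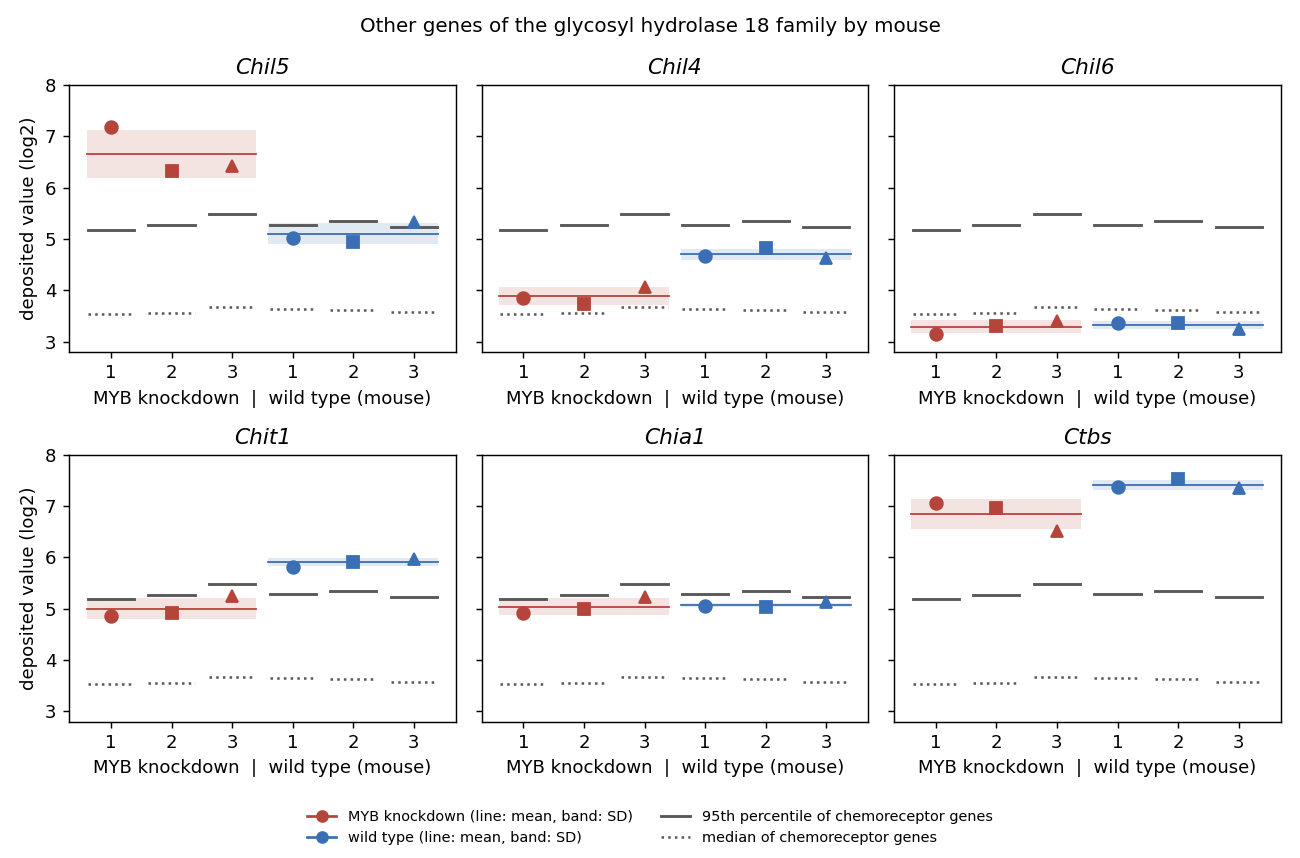
Deposited log2 values (y axis) of the 6 other glycosyl hydrolase 18 genes with a probe set of their own, in the 3 MYB knockdown mice (red, left) and the 3 wild type mice (blue, right), with mean, SD and floor drawn as for the members. Chil5 sits above the floor in all knockdown mice, Chit1 in all wild type mice, and Chil4, Chil6 and Chia1 in none.

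Not all tested genes next to each member on its chromosome passed the test, and those around Chil3 that did went both ways. Prelp, Mybph, Myog and 2010016I18Rik averaged near the floor in wild type mice. A fall of the size of that of Chil1 or Chil3 could not have shown in these dim genes. A difference of -3.55 would have taken every tested neighbour of Chil1 under the floor, even Btg2, the brightest, at 8.60 in wild type mice. A difference of -5.68 would have done so for every tested neighbour of Chil3, even Atp5pb, the brightest, at 10.40. The full size of such falls could therefore not have been read in any of these neighbours. Chia1 and Chil4, of the same stretch as Chil3, were not among the genes tested and were passed over. Of the 3 nearest on each side of Chil1, Chit1 fell and the other 5 did not pass the test, among them Mybph, the next tested gene on the other side, at -0.02 ± 0.13 (SE; limma, adjusted p = 0.945). Around Chil3, Chil5 rose, Wdr77, a methylosome subunit, rose by 0.42 ± 0.089 (limma, adjusted p = 0.0197), Dennd2d, a regulator of Rab proteins, fell by 0.53 ± 0.093 (limma, adjusted p = 0.00834), and Atp5pb, 2010016I18Rik and Cept1 did not pass. The call of Wdr77 was lost without knockdown mouse 2 or wild type mouse 1 or 2 (adjusted p = 0.0824, 0.102 and 0.105), and that of Dennd2d without wild type mouse 1, 2 or 3 (adjusted p = 0.0561, 0.0601 and 0.0513). Around Chid1, Polr2l, an RNA polymerase subunit, rose by 0.66 ± 0.18 (limma, adjusted p = 0.0492) and the other 5 did not pass. The call of Polr2l was lost without knockdown mouse 2 or wild type mouse 1, 2 or 3 (adjusted p = 0.0886, 0.177, 0.159 and 0.121). It was also lost with quantile normalization, without the trend, without the filter and with robust eBayes (adjusted p = 0.0611, 0.0595, 0.0543 and 0.0521).

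**Figure D3:**
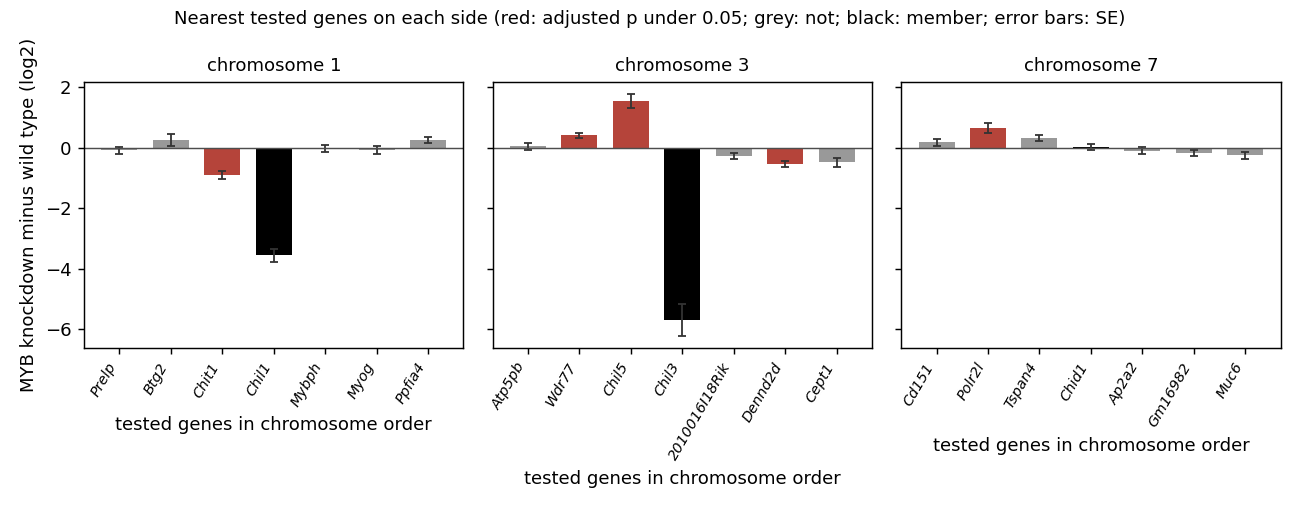
Difference of MYB knockdown minus wild type in log2 units (y axis, bars with SE) for each member (black) and the 3 nearest tested genes on each side in chromosome order (x axis); red bars have an adjusted p under 0.05 and grey bars do not. Chil3 at -5.68 stands between Chil5 at 1.55 and 2010016I18Rik at -0.27.

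Most receptors and partners reported for these proteins did not pass the test. Of 12 such genes 11 were tested, of which 2 rose, 1 fell and 8 did not pass, where 11.6% of all genes were called, and the median difference was 0.09. Lgals3, galectin-3, a lectin reported to bind human CHI3L1, rose by 1.15 ± 0.16 (SE), with 9.33, 9.08 and 9.73 in knockdown mice 1, 2 and 3 against 8.10, 8.26 and 8.32 in wild type mice 1, 2 and 3 (limma, adjusted p = 0.00305). Il13ra1, the IL-13 receptor chain that signals with the IL-4 receptor, rose by 0.89 ± 0.11 (limma, adjusted p = 0.00161), while Il13ra2, the IL-13 receptor chain reported as a receptor of Chil1, was under the floor on all 6 arrays. Tmem219, reported as its co-receptor, differed by 0.01 (adjusted p = 0.985), and Cd44, a hyaluronan receptor, by -0.18 (adjusted p = 0.295), both in limma. Stab1, the scavenger receptor that binds Chid1, averaged near the floor and differed by 0.07 (limma, adjusted p = 0.72).

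Gga2, one of the adaptors that sort cargo at the Golgi, fell by 0.49 ± 0.11 (SE; limma, adjusted p = 0.0274). The call was lost without knockdown mouse 1 or 2 or wild type mouse 1, 2 or 3 (adjusted p = 0.0655, 0.0995, 0.14, 0.0968 and 0.0898), which left 0 falls in the list by limma and 2 rises. Sdc1, a proteoglycan, differed by 0.29 and did not pass (limma, adjusted p = 0.175). Tmem219, Cd44 and Stab1 were named for their link to the members, after their values were seen.

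Chil3 is widely used as a marker of macrophages activated by IL-4 or IL-13, so the genes of that response were read beside it. Of 20 such genes 13 were tested, of which 3 rose, 2 fell and 8 did not pass, with a median of -0.05, where 11.6% of all genes were called either way. Mgl2, a galactose-binding lectin of alternatively activated macrophages, fell by 2.90 ± 0.16 (SE; limma, adjusted p = 3.18e-05), with 5.12, 5.20 and 5.41 in knockdown mice 1, 2 and 3, all under their floors, against 8.48, 7.99 and 7.95 in wild type mice 1, 2 and 3. Mrc1, the mannose receptor, fell by 1.56 ± 0.25 (limma, adjusted p = 0.0058), with knockdown mice 2 and 3 under their floors. In the opposite direction, Pdcd1lg2, the PD-1 ligand PD-L2, rose by 1.94 ± 0.15 (limma, adjusted p = 0.000154), with all wild type mice under the floor, and Alox15, a lipoxygenase, rose by 2.85 ± 0.38 (limma, adjusted p = 0.00216). Il4ra, the IL-4 receptor chain, rose by 0.58 ± 0.13 (limma, adjusted p = 0.0232) and was named after its values were seen. The call of Il4ra was lost without knockdown mouse 2 (adjusted p = 0.0717) and without wild type mouse 1, 2 or 3 (adjusted p = 0.115, 0.1 and 0.0749).

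Arg1, Retnla, Irf4, Ccl22 and Ccl24 were under the floor on all 6 arrays. Stat6, the transcription factor of the pathway, was bright and differed by -0.06 (limma, adjusted p = 0.723), and Il2rg and Jak3 had no probe set of their own among those used. Of the 18 genes with a probe set 5 were thus not measured above the floor in either group, among them Arg1 and Retnla, which together with Chil3 are the usual markers of that activation in mouse. Stat6 was named for its role, after its values were seen.

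Of 19 transcription factors of granulocytes and monocytes, all tested, 1 rose, 4 fell and 14 did not pass, with a median of -0.08, where 6.12% of all genes rose and 5.48% fell. Gfi1, a repressor needed for neutrophils, fell by 1.49 ± 0.12 (SE), with 7.57, 7.61 and 7.48 in knockdown mice 1, 2 and 3 against 9.24, 8.87 and 9.02 in wild type mice 1, 2 and 3 (limma, adjusted p = 0.000192). Ets1, an ETS factor, fell by 1.11 ± 0.15 (limma, adjusted p = 0.00273), Cebpd, a C/EBP factor, by 0.62 ± 0.11 (limma, adjusted p = 0.00799), and the last of the falls was Myb. Runx1 rose by 0.54 ± 0.11 (limma, adjusted p = 0.0188). Cebpe, which drives the genes of secondary granules, averaged 9.83 ± 0.204 in knockdown and 9.83 ± 0.017 in wild type (SD, n = 3 each), and Spi1, which encodes PU.1, differed by 0.14 (limma, adjusted p = 0.998 and 0.467). Cebpe and Spi1 were named for their role, after their values were seen.

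The count of these factors depended on the mice. Without wild type mouse 1 or 3, 0 rose and 2 fell by limma, and without wild type mouse 2, 0 rose and 3 fell, since Myb and Runx1 missed the threshold in each (for Runx1, adjusted p = 0.097, 0.0821 and 0.0561 without wild type mice 1, 2 and 3) and Cebpd without wild type mouse 1 or 3 (adjusted p = 0.0536 and 0.0537). Gfi1 was called under all 15 alternatives run.

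Of 14 genes that cut or recycle N-acetylglucosamine, the sugar of chitin, 12 were tested, of which 0 rose and 2 fell by limma, where 11.6% of all genes were called either way, and the median was -0.25. Hexa, the alpha chain of lysosomal hexosaminidase, fell by 0.70 ± 0.11 (SE; limma, adjusted p = 0.00615), and Renbp, which converts N-acetylglucosamine to N-acetylmannosamine, fell by 0.69 ± 0.11 (limma, adjusted p = 0.00494). Uap1 and Amdhd2 differed by -0.47 and -0.36 and did not pass (limma, adjusted p = 0.101 and 0.14). Without knockdown mouse 3, 1 of the list rose and 4 fell.

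Lists of granulocyte genes were read beside Chil3 and Chil1. Of 9 primary granule and promyelocyte genes 8 fell and 0 rose, with a median of -1.29, where 5.48% of all genes fell; Elane, neutrophil elastase, fell by 3.69 ± 0.078 and Gstm1, a glutathione transferase, fell to 8.90 in knockdown against 11.30 in wild type mice (limma, adjusted p = 2.66e-07 and 2.45e-05). Of 15 genes of specific and gelatinase granules and later neutrophils 7 fell, 7 did not pass and 1, Mmp8, rose by 3.26 (limma, adjusted p = 0.000888), with a median of -1.21, among them Fcnb, a ficolin, which fell by 4.25 ± 0.15, and Camp, the cathelicidin, which fell by 3.36 ± 0.36 (SE; limma, adjusted p = 8.46e-06 and 0.000794). Without knockdown mouse 3, 9 of these specific granule genes fell and 2 rose. Mmp8 was named after its values were seen, and in wild type mouse 1 it was under the floor. Itgam, which is in the list of specific and gelatinase granules and did not pass, encodes CD11b, on which the cells were sorted.

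The summed level of the primary granule genes, as the log2 of the sum of linear values, was 13.66 to 13.76 in knockdown and 14.92 to 15.04 in wild type mice. That of the specific and gelatinase granule genes was 13.38 to 14.08 in knockdown and 14.81 to 14.98 in wild type mice, and no member of either list was under the floor on all arrays. Ngp and Lcn2, further specific granule genes, read 11.05 to 11.82 and 11.52 to 12.03 in knockdown mice and 12.05 to 12.11 and 12.12 to 12.31 in wild type mice, and did not pass the test (limma, adjusted p = 0.0926 and 0.13). The part of these genes in the difference of Chil3 and Chil1 was not tested. Ngp and Lcn2 were named after their values were seen.

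Among the knockdown mice, mouse 1 kept most Chil3 and Chil1. Relative to the wild type mean, Chil3 stood at -4.21 in knockdown mouse 1, at -6.15 in mouse 2 and at -6.67 in mouse 3. Chil1 stood at -3.05, -3.75 and -3.85 in the same mice. The median of the specific and gelatinase granule genes was -0.39, -1.63 and -1.19, so mouse 1 kept most of these as well, and likewise most of the eosinophil genes, whose median was -2.54 in mouse 2 and -2.13 in mouse 3. The primary granule genes stood at -1.41, -1.36 and -1.24, with mouse 1 the lowest. Chit1 stood at -1.04, -0.99 and -0.66, with mouse 1 again the furthest below wild type. Every knockdown mouse was under the array floor for Chit1, and mice 2 and 3 were for Chil3. The order among those values therefore carries no weight. Chid1 stood at 0.12, 0.04 and -0.03.

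**Figure D4:**
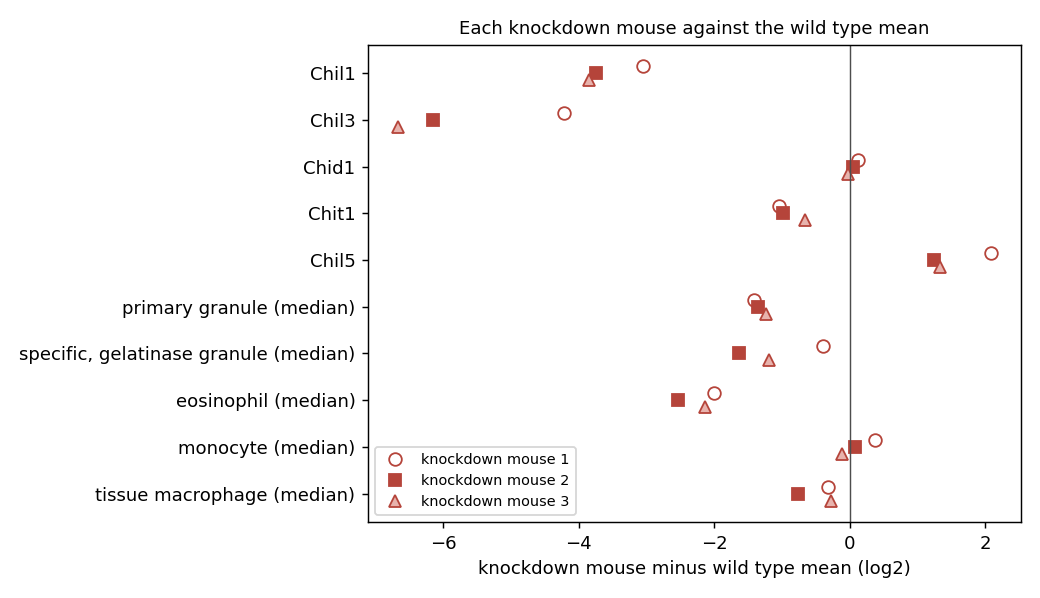
Difference of each MYB knockdown mouse from the wild type mean on the log2 scale (x axis) for Chil1, Chil3, Chid1, Chit1 and Chil5 and for the median of 5 marker lists (y axis), with 1 symbol per mouse. Knockdown mouse 1 (open circles) lies nearest to 0 for Chil1, Chil3 and the medians of the specific granule and eosinophil genes, and furthest from 0 for Chid1, Chit1, Chil5 and the medians of the primary granule and monocyte genes. Every knockdown mouse was under the array floor for Chit1, as were knockdown mice 2 and 3 for Chil3.

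Markers of other cells that the gate could hold were read in the same way, against the 6.12% of all genes that rose and the 5.48% that fell. The summed levels here and below take in every gene of a list with a probe set of its own, also those not tested. Of 7 tested eosinophil genes 5 fell, with a median of -2.22 and a summed level that was lowest in knockdown mouse 2 at 9.12, followed by mouse 3 at 9.71 and mouse 1, against 12.02 to 12.28 in wild type mice; Epx, eosinophil peroxidase, fell by 4.14 ± 0.29 (SE; limma, adjusted p = 9.76e-05). Of 10 monocyte genes 3 rose and 2 fell (median 0.01; summed level 11.93 to 12.18 in knockdown and 12.33 to 12.54 in wild type mice). F13a1, a coagulation factor of monocytes, fell by 2.84 ± 0.34 and S100a4, a calcium-binding protein, rose by 1.73 ± 0.10 (SE; limma, adjusted p = 0.00137 and 4.08e-05). Of 12 tested genes of tissue macrophages, which can also make Chil3, 3 fell and 0 rose (median -0.52; summed level 9.96 to 10.66 in knockdown and 11.05 to 11.33 in wild type mice), with Vcam1, an adhesion molecule, at 6.74 in knockdown and 9.74 in wild type mice (limma, adjusted p = 0.000188). Without knockdown mouse 1 or 3, 5 and 7 of the macrophage genes fell, and 2 fell without knockdown mouse 2 or wild type mouse 1, 2 or 3. Under the other alternatives the falls ran from 1, with the filter at 50%, to 9, with array weights.

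Against the same 6.12% that rose and 5.48% that fell among all genes, the mast cell and basophil list held 8 tested genes, of which 2 rose and 4 fell (median -0.29; summed level 11.52 to 11.91 in knockdown and 12.53 to 12.96 in wild type mice), and Cma1, Mcpt4 and Tpsb2 of mast cells were under the floor on all arrays. Of 10 dendritic cell genes 3 rose and 2 fell (median -0.05; summed level 11.72 to 11.86 in knockdown and 11.57 to 11.72 in wild type mice). Of 9 B lymphoid genes 4 fell (median -0.54; summed level 10.31 to 10.37 in knockdown and 10.66 to 11.08 in wild type mice). Of 9 erythroid and megakaryocyte genes 4 rose (median 0.84; summed level 12.13 to 12.88 in knockdown and 11.84 to 12.22 in wild type mice). Those that rose were Pf4, Ppbp, Itga2b and Gp9, all of megakaryocytes, and no tested erythroid gene of the list passed the test.

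The calls of these other lists rested in part on single mice. Among dendritic cell genes 4 rose and 4 fell without knockdown mouse 3, 3 rose and 0 fell by limma without knockdown mouse 2, and 1, 1 and 2 rose and 2, 0 and 0 fell without wild type mice 1, 2 and 3. Among B lymphoid genes 7 fell without knockdown mouse 3, and 2 fell without knockdown mouse 2, wild type mouse 2 or wild type mouse 3. Among mast cell and basophil genes 1 rose without knockdown mouse 2 or wild type mouse 1, and 0 rose by limma without wild type mouse 2 or 3. The part of these cells in the difference of Chil3 and Chil1 was not tested.

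**Figure D5:**
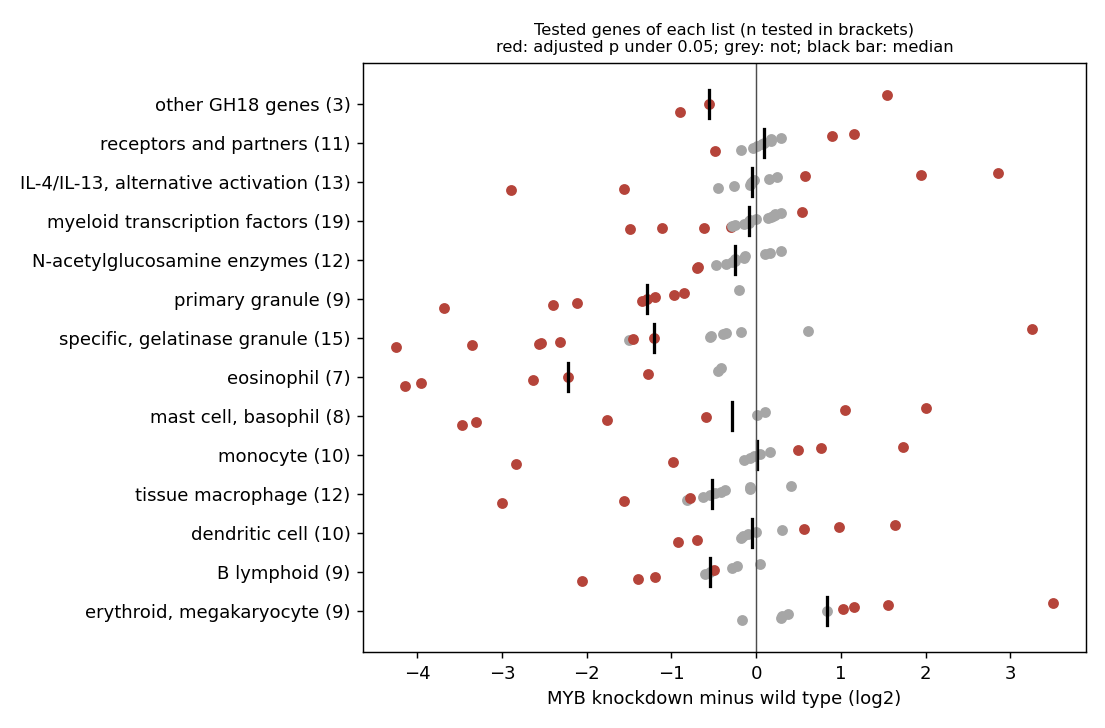
Difference of MYB knockdown minus wild type in log2 units (x axis) for each tested gene of the 5 gene lists and 9 marker lists (y axis, number tested in brackets); red points have an adjusted p under 0.05, grey points do not, and black bars give the median. The granule and eosinophil lists lie furthest to the left, with medians of -1.29, -1.21 and -2.22.

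Many genes shared the pattern of Chil3 and Chil1 over the 6 arrays, which fall into 2 groups, so the likeness below describes the split between the groups more than the order within them. Pearson's r was 0.992 between Chil1 and Chil3, -0.260 between Chil1 and Chid1 and -0.156 between Chil3 and Chid1. Of 13056 genes compared, 433 had an r over 0.95 with Chil3, 396 with Chil1 and 1 with Chid1. The genes nearest to Chil3 were Sort1, a sorting receptor (r = 0.999), Frmd4b, Mpeg1, perforin-2 of macrophages, Jarid2, a chromatin protein, and Hk3, a hexokinase of myeloid cells (each r = 0.998). Their differences ran from -0.31 for Jarid2 to -2.24 for Hk3, all smaller than that of Chil3.

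Nearest to Chil1 were Stxbp5, a syntaxin-binding protein (r = 0.999), Pram1, an adaptor of neutrophils (r = 0.998), Cnn3, a calponin (r = 0.997), Esr1, the oestrogen receptor alpha, and Tnfsf13b, the cytokine BAFF (each r = 0.996). Pram1 read 7.54, 7.20 and 7.13 in knockdown mice 1, 2 and 3 against 9.48, 9.59 and 9.57 in wild type mice 1, 2 and 3, with the same order of the knockdown mice as Chil1. Nearest to Chid1 were Stmn3 (r = 0.958), Slc16a3, Ccl25, Mfsd4b1 and Zfp94 (r = 0.943, 0.942, 0.933 and 0.929), whose differences between the groups were 0.05 to 0.12, so this likeness rests on the spread within the groups.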

How the data were processed

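Per the labels' protocols, RNA of the sorted cells was isolated in Trizol and prepared with a whole-transcript labelling kit. The values are the log2 expression levels that the authors deposited. Affymetrix Expression Console and limma are named, per the submitters' processing notes. The background correction and normalization were not stated, and the log2 unit follows from the range of 1.83 to 13.26 with array medians of 5.87 to 5.99. Arrays carry no read depth, and the number of arrays limits the precision.

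The platform annotation gave 1 symbol to 21789 of the 35556 probe sets and several to 1621, while 12146 stayed unnamed here. The brightest probe set per gene was used, the 30% of genes with the lowest mean were left out, and 13956 genes were fitted with lmFit and eBayes with a trend (limma 3.58.1, R 4.3.3), without covariates, Benjamini-Hochberg adjusted over all of them, threshold 0.05. Every adjusted p is from limma. SE is that of the fit. The fit was tested on simulated data. Windows around gene starts were aligned with Biopython 1.88. The RefSeq annotation of GRCm38.p6 gave chromosomes and gene order.

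The members and lists were chosen with earlier results of these data known. The genes named are the members, Myb, the measured family, up to 4 genes of smallest p per list, the 5 most alike and the 3 nearest tested genes on each side; others are marked. Replicate numbers name different mice; deviations of same-numbered mice correlated at 0.293, -0.188 and -0.083, so they were not treated as pairs. Alternatives were the replicate block, each array left out, quantile normalization, median centring, no filter or 50%, mean of probe sets, eBayes untrended or robust, array weights, and other floors.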

Additional observations from a re-analysis of the deposited data

How the results depend on the processing

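The differences of Chil1, Chil3 and Chid1 moved by less than the spread between mice under every alternative run: Chil1 between -3.80 and -3.40, Chil3 between -6.41 and -5.18, and Chid1 between -0.00 and 0.12. With 1 array left out this had to hold, because the SD that gave the spread came from the same mice. The mean of probe sets could not move genes with a single probe set. The floor-bounded difference of Chil3 lay between -5.81 and -4.78. Chil5 and Chit1 were called under all 14 alternatives that tested them (adjusted p up to 0.0227 and 0.0171), and the filter at 50% left both out. Both passed the main filter only through their brighter group, so these repeated calls are no measure of the family. Without the filter on dim genes limma still called both (adjusted p = 0.00261 and 0.00213). With the replicate block the 3 differences were the same (-3.55, -5.68 and 0.04), which the balanced design fixes in advance. Of the 5 gene lists the count moved with the block for receptors and partners only, where 2 were called (2 rose and 0 fell by limma, Gga2 at adjusted p = 0.0534). Against 1619 calls over all genes, 2026 were made after median centring (1433 rose and 593 fell, against 854 and 765), 3912 with array weights (2351 rose and 1561 fell), and 663 to 3794 with 1 array left out (911 and 3794 without knockdown mice 2 and 3, and 663, 686 and 747 without wild type mice 1, 2 and 3). The replicate block gave 1472 calls (746 rose and 726 fell); same-numbered mice are different animals, so it is no pairing. Of the family 2 were called after median centring and with robust eBayes, 1 with the filter at 50%, and 2 or 3 with 1 array left out. With the filter at 50%, 2 receptors and partners and 3 genes of the IL-4 and IL-13 list were called, of 3 and 5. With array weights 8 transcription factors and 5 N-acetylglucosamine genes were called, of 5 and 2. With 1 array left out the counts were 2 to 3 for receptors and partners, 4 to 5 for the IL-4 and IL-13 list, 2 to 6 for transcription factors and 2 to 5 for N-acetylglucosamine genes. Over 85 named genes tested, 1150 of the pairs of gene and alternative stayed called or stayed not called, 84 lost a call and 20 gained one. In 0 pairs did a called gene reverse its direction. Small differences of genes not called could change sign, such as that of Ccl25, 0.05 in the main fit and -0.07 with the mean of probe sets. The cause of these shifts was not tested, except that a fit without 1 array has fewer mice and the filter at 50% tests fewer genes. Probe sets near the floor limit what can be said of Chil4, Chia1, Chil6 and the knockdown level of Chil3.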
